A study of Mus musculus with 8 samples.

Results

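The 5 entries described here are the mature arms of miR-146a, miR-146b and miR-155 found in small RNA libraries of mouse Kupffer cells, macrophages that live in the liver sinusoids. They were chosen by name from the deposited table, as entries carrying 1 of the 3 stems mmu-miR-146a, mmu-miR-146b and mmu-miR-155 with any arm and any suffix, and they are 5 of 1234 entries. The comparison set Kupffer cells of Trem2 knockout mice (KO, animals 40, 46, 88 and 90) against those of wild-type littermates (WT, animals 35, 37, 80 and 82), with 1 library for each animal. All 8 mice were males fed high-fat chow for 8 weeks, starting when they were 8 weeks old, and the cells were obtained by flow cytometric sorting of liver cells. Trem2 is a lipid-sensing receptor of macrophages. Its own mRNA is not measured in small RNA libraries, so the genotype labels were not checked against it.

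NF-kB is the transcription factor through which Toll-like receptors switch on inflammatory genes in macrophages, and it also drives transcription of the miR-146a and miR-155 genes. The miR-146 family dampens that signal by repressing the adaptor Traf6 and the kinase Irak1, which makes it a negative feedback regulator. By contrast, miR-155 prolongs macrophage activation by repressing the inhibitors Socs1 and Inpp5d.

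The deposited sequences of the 5 entries are shown first because the arms are told apart by few bases. The seed, bases 2 to 8, which pairs with target mRNAs, is in capitals.
miR-146a-5p: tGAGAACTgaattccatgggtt
miR-146b-5p: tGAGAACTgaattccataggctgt
miR-155-5p: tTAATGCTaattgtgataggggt
miR-146a-3p: aCCTGTGAaattcagttcttc
miR-146b-3p: gCCCTAGGgactcagttctggt
The 5p arms of miR-146a and miR-146b share the seed GAGAACT. Over their 22 mature positions in RefSeq, counted from the 5′ end, they are the same at 20 and differ by G18A and U21C, with the miR-146a base given first. The miR-155-5p seed, TAATGCT, occurred in no other entry of the table.

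All 5 entries matched their RefSeq hairpins (GRCm38.p6) without mismatch. The hairpins are printed with the RefSeq mature arms in capitals, 5p before 3p, to show where each entry comes from.
Mir146: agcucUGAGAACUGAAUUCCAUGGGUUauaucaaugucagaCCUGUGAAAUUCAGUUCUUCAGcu
Mir146b: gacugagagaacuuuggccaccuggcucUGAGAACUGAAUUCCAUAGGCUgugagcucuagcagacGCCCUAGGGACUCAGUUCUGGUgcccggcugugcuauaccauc
Mir155: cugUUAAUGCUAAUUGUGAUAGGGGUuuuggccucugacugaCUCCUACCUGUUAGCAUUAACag
Mir146, the miR-146a gene, lies at chr11:43374397-43374461 on the minus strand and overlaps no other gene in GENCODE M21. Mir146b, at chr19:46342762-46342870 on the plus strand, lies within the gene Mfsd13a but overlaps none of its exons. Mir155, at chr16:84714140-84714204 on the plus strand, lies in exon 2 of Mir155hg, its long non-coding host gene. The only mmu-miR-155 entry was the 5p arm, so the 3p arm of miR-155 was not analysed here.

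In 3 of the 5 entries the deposited sequence was the RefSeq mature form base for base. The deposited miR-146b-5p sequence ran 2 bases further at its 3′ end, and both bases are in the hairpin. The miR-146a-3p sequence began 1 base earlier than the RefSeq form and ended 2 bases earlier. The earlier start moves the seed by 1 base, to CCTGTGA, where the RefSeq form has CUGUGAA. Both forms are printed from their own first base.
miR-146a-3p in the deposited table: aCCTGTGAaattcagttcttc
miR-146a-3p in RefSeq: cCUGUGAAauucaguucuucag
No entry of the table carried the RefSeq seed of miR-146a-3p.

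Libraries held between 2129942 and 9443992 expected counts in all, so that 3 counts corresponded to 0.318 to 1.41 CPM, the count scaled to the library total. The 5 entries together took 5.26% to 11.1% of a library's counts. All 4 macrophage marker miRNAs (miR-142a, miR-223, miR-342 and miR-511) were present in every library. Summed levels of markers are given in CPM after TMM scaling of the libraries. For these 4 miRNAs the sum was 30355 to 64948 CPM in KO libraries and 25774 to 71455 CPM in WT libraries. The summed level of 3 hepatocyte miRNAs (miR-122, miR-192 and miR-194, all 3 present in every library) was 7821 to 38353 CPM in KO libraries and 8832 to 131726 CPM in WT libraries, with the top value in WT 37. The animal numbers fall into 2 ranges, 80 to 90 and 35 to 46, each with 2 KO and 2 WT mice. Libraries differed strongly between these ranges, although no label calls the ranges a batch, so member values are also given by range. In bulk RNA, fewer cells of a type and less RNA per cell cannot be told apart.

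The dominant member was miR-146a-5p, the arm that represses Traf6 and Irak1. Among mouse entries it was at rank 2 or 3 in every library. It took 11.0% of the counts in KO 88, where it was highest (Wilson 95% interval 11.0% to 11.1%), and 5.13% in WT 82, where it was lowest (5.11% to 5.15%). These intervals cover counting error only. On the scale used for the comparison, CPM after TMM scaling of the libraries, KO 40, 46, 88 and 90 held 80885, 90797, 92408 and 67901 CPM of miR-146a-5p, against 102589.7, 97240.0, 97713 and 41117 CPM in WT 35, 37, 80 and 82. All 4 KO libraries lay inside the span of the WT libraries, and WT 82 alone lay below every KO library.

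Means of miR-146a-5p were 82998 ± 11281 CPM in KO and 84665 ± 29132 CPM in WT libraries (SD, n = 4 each). The log2 difference, KO minus WT, was -0.03 ± 0.32 (SE, 95% interval -0.74 to 0.68; edgeR quasi-likelihood adjusted p 0.997). The difference was smaller than the spread between animals, and the interval allows differences of either sign. The estimate turned positive with DESeq2 size factors (0.0140) and without TMM factors (0.0742).

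The second copy of the family, miR-146b-5p, has the same seed and stood far below miR-146a-5p. KO 40, 46, 88 and 90 held 1295, 1587, 908 and 1665 CPM of miR-146b-5p, against 1651, 1522, 2378 and 973 CPM in WT 35, 37, 80 and 82. The genotypes overlapped, with the highest value in WT 80 and the lowest in KO 88. Means of miR-146b-5p were 1364 ± 343 CPM in KO and 1631 ± 578 CPM in WT libraries (SD, n = 4 each), and the log2 difference was -0.26 ± 0.35 (SE, 95% interval -1.03 to 0.51; edgeR adjusted p 0.997).

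The counts of these similar arms are uncertain to the extent that reads matching both were divided between them. Expected counts had a fraction of 0.5 for miR-146a-5p in 6 libraries and for miR-146b-5p in the same 6, and how many reads were divided cannot be read from the table.

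Little miR-155-5p, the pro-inflammatory member, was present. KO 40, 46, 88 and 90 held 123, 41, 111 and 243 counts of miR-155-5p, against 103, 105, 722 and 91 counts in WT 35, 37, 80 and 82. Scaled, these were 37.05, 18.5, 35.7 and 38.7 CPM in the KO libraries and 39.4, 42.8, 88.9 and 18.8 CPM in the WT libraries. WT 80 stood far above every other library, and the lowest values were in KO 46 and WT 82, so the genotypes overlapped.

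Means of miR-155-5p were 32.5 ± 9.39 CPM in KO and 47.5 ± 29.6 CPM in WT libraries (SD, n = 4 each). The log2 difference was -0.55 ± 0.52 (SE, 95% interval -1.71 to 0.62; edgeR adjusted p 0.997), within the spread between animals. It rested largely on WT 80: without that library the miR-155-5p log2 difference was -0.06, and without WT 82 it was -0.82.

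**Figure D1:**
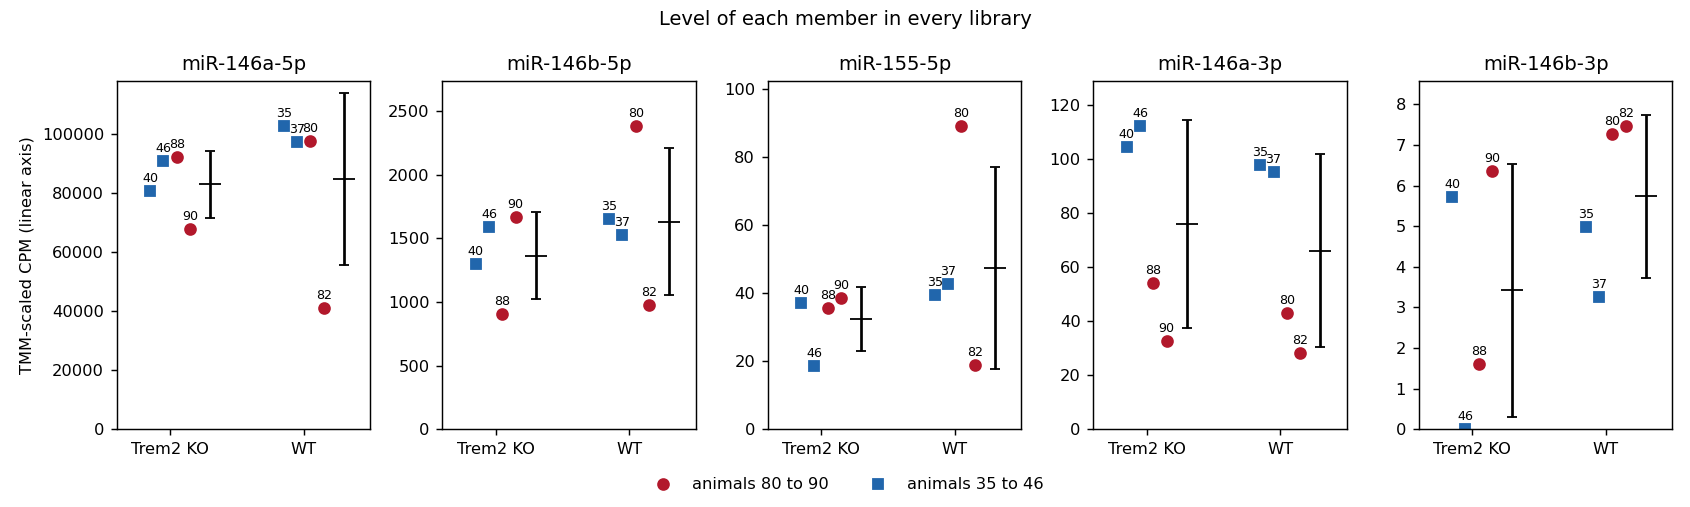
Level of each entry (TMM-scaled CPM, linear axis from 0, 1 panel per entry) in the 4 Trem2 KO and 4 WT libraries, labelled by animal number; bars are the mean ± SD. The genotypes overlap in each panel, WT 80 stands above the rest for miR-155-5p at 88.9 CPM, and miR-146a-3p separates by animal number range.

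The minor arms, which usually are degraded after the hairpin is cut, were scarce. KO 40, 46, 88 and 90 held 105, 112, 54.3 and 32.8 CPM of miR-146a-3p, against 97.9, 95.3, 43.0 and 28.4 CPM in WT 35, 37, 80 and 82. Genotypes overlapped, while every library of animals 80 to 90 lay below every library of animals 35 to 46. Means were 75.9 ± 38.5 CPM in KO and 66.1 ± 35.7 CPM in WT libraries (SD, n = 4 each), with a miR-146a-3p log2 difference of 0.20 ± 0.55 (SE, 95% interval -1.03 to 1.43; edgeR adjusted p 0.997). That fit had no term for the number range, so its error includes the difference between ranges. With the number range as a block the miR-146a-3p difference was 0.22 ± 0.28 (SE, 95% interval -0.40 to 0.84, edgeR adjusted p 0.946).

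Near the detection limit, miR-146b-3p had 19, 0, 5 and 40 counts in KO 40, 46, 88 and 90, against 13, 8, 59 and 36 counts in WT 35, 37, 80 and 82. The count of 0 in KO 46 allows up to 1.80 CPM before TMM scaling (upper end of the Wilson 95% interval). Means of miR-146b-3p were 3.42 ± 3.11 CPM in KO and 5.74 ± 2.0 CPM in WT libraries (SD, n = 4 each). The log2 difference was -0.72 ± 1.05 (SE, 95% interval -3.08 to 1.63, edgeR adjusted p 0.997). That wide interval allows large differences of either sign for miR-146b-3p.

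Across the 5 entries, 0 passed an adjusted p of 0.05 for genotype, where 0% of the 627 entries tested passed in edgeR. At an unadjusted p under 0.05 edgeR gave 2 of the 627 entries, DESeq2 gave 6 and limma-trend gave 3, and both other tools also called 0. These fits had no term for the number range. With the number range as a block, edgeR gave 17 of the 627 at an unadjusted p under 0.05 and called 0. All 5 entries passed the filter on low counts. Libraries of the genotypes did not overlap for 0 of the 5 entries and for 0.797% of all tested entries (0.319% with KO above and 0.478% with KO below). Estimates were below 0 for 4 entries and above 0 for 1, against 335 below and 292 above among all tested. Arms of 1 hairpin share a source, so the members are not independent.

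The genotype difference also did not separate from 0 within either number range. For miR-146a-5p the log2 difference, KO minus WT, was 0.24 ± 0.50 (SE) in animals 80 to 90 and -0.16 ± 0.21 in animals 35 to 46. For miR-146b-5p it was -0.37 ± 0.52 in animals 80 to 90 and -0.08 ± 0.25 in animals 35 to 46. For miR-155-5p it was -0.51 ± 0.80 in animals 80 to 90 and -0.50 ± 0.43 in animals 35 to 46. These similar estimates came from different patterns. In animals 80 to 90 both KO libraries (35.7 and 38.7 CPM) lay between WT 82 (18.8 CPM) and WT 80 (88.9 CPM). In animals 35 to 46 KO 46 was low (18.5 CPM), while KO 40 (37.05 CPM) was near WT 35 and WT 37 (39.4 and 42.8 CPM). The interaction of genotype with range passed for 0 of the 5 entries, where 0% of all 627 passed in edgeR, with 30 of the 627 at an unadjusted p under 0.05. The interaction estimate of miR-146a-5p was 0.43 ± 0.58 and that of miR-155-5p 0.02 ± 0.98 (SE).

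**Figure D2:**
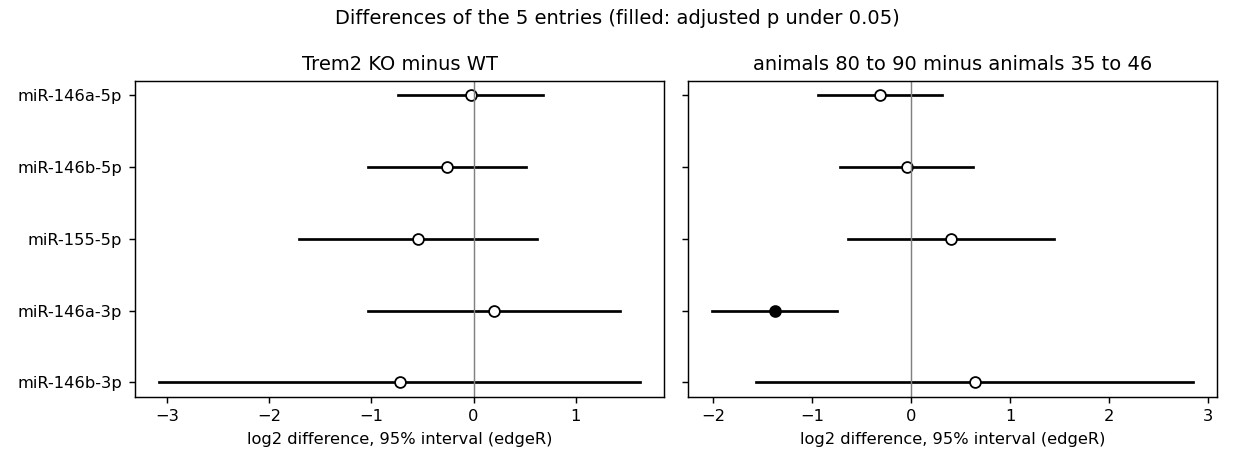
Log2 differences of the 5 entries with 95% intervals from edgeR, KO minus WT at left and animals 80 to 90 minus animals 35 to 46 at right; filled points passed an adjusted p of 0.05. The KO minus WT intervals all span 0, and miR-146a-3p at -1.38 between the number ranges is the filled point.

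Leaving out 1 library at a time moved each genotype estimate without bringing any past the threshold. The range over the 8 fits was -0.26 to 0.07 for miR-146a-5p, -0.45 to -0.03 for miR-146b-5p and -0.82 to -0.06 for miR-155-5p. It was -0.06 to 0.46 for miR-146a-3p and -1.22 to -0.35 for miR-146b-3p. The sign thus held for miR-146b-5p, miR-155-5p and miR-146b-3p under these omissions and turned for both miR-146a arms. The miR-146b-5p estimate was nearest 0 without WT 80 and next without KO 88, at -0.0290 and -0.0958. The miR-146a-3p estimate was below 0 without KO 46 and without WT 82.

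**Figure D3:**
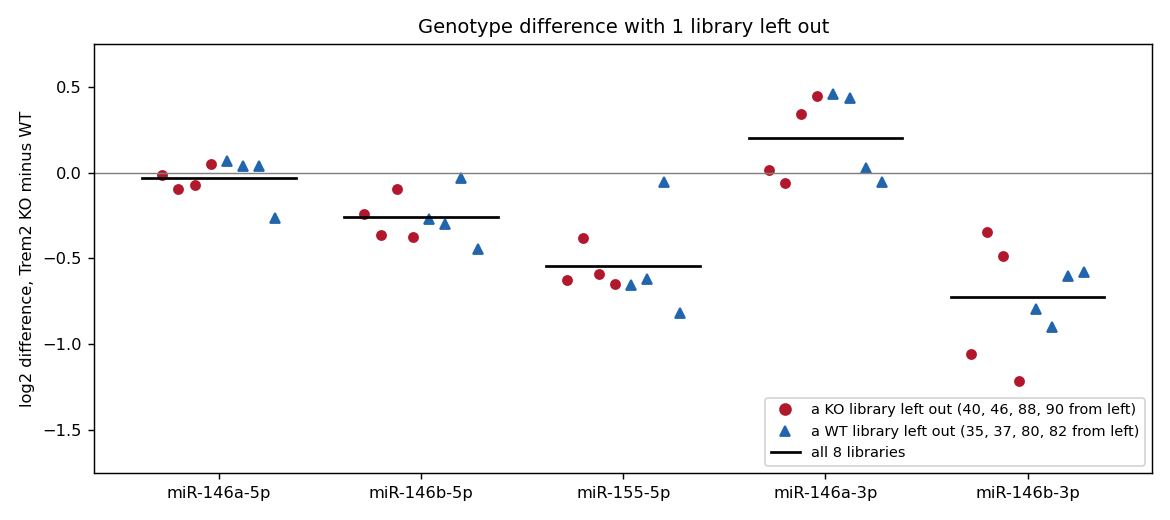
Log2 difference, KO minus WT, of each entry when 1 library is left out (circles: a KO library; triangles: a WT library) and with all 8 libraries (line). For miR-155-5p, the estimate is -0.06 without WT 80 and -0.55 with all libraries.

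The levels followed 1 order in 6 of 8 libraries, and KO 90 and WT 80 were the exceptions. Every entry spans 21 to 24 bases and is read whole, so counts were set side by side without scaling for length. How evenly library preparation captures different sequences was not tested, so levels and ratios between entries describe counts. The mean level of miR-146a-5p was 56.0 times that of miR-146b-5p, which in turn was 21.1 times that of miR-146a-3p, and neither pair overlapped over the 8 libraries. The neighbours miR-146a-3p and miR-155-5p did overlap, at 28.4 to 112 CPM and 18.5 to 88.9 CPM, with miR-146a-3p the higher in 6 of 8 libraries. In every library miR-146b-3p was lowest, at 0 to 7.45 CPM.

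Ratios within a library do not depend on library scaling and set the feedback brake against its pro-inflammatory counterpart. There were 2174, 4842, 2578 and 1752 miR-146a-5p counts for each miR-155-5p count in KO 40, 46, 88 and 90, against 2593, 2263, 1098 and 2171 in WT 35, 37, 80 and 82. The highest ratio was in KO 46 and the lowest in WT 80, the same libraries that held the extremes of miR-155-5p. The mean log2 ratio was 11.36 ± 0.63 in KO and 10.92 ± 0.56 in WT libraries (SD, n = 4 each), a difference of 0.44 (exact two-sided permutation p 0.457, adjusted p 0.771 over 5 ratios). It was 0.15 without KO 46 and 0.17 without WT 80.

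Between the 2 arms that share a seed, miR-146a-5p outnumbered miR-146b-5p by 62.4, 57.2, 101.8 and 40.8 to 1 in KO 40, 46, 88 and 90, against 62.2, 63.9, 41.1 and 42.2 to 1 in WT 35, 37, 80 and 82. KO 90, WT 80 and WT 82 were close together, as were the 4 libraries of animals 35 to 46, and KO 88 stood above both sets. The mean log2 ratio was 5.96 ± 0.54 in KO and 5.68 ± 0.35 in WT libraries (SD, n = 4 each), a difference of 0.28 (exact two-sided permutation p 0.6, adjusted p 0.771). It rested largely on KO 88, without which it was 0.0385. The log2 ratio of miR-146b-5p to miR-155-5p differed by 0.16 between genotypes (exact two-sided permutation p 0.771, adjusted p 0.771) and was -0.17 without KO 46. With 4 against 4 libraries, the smallest p that the 70 assignments allow is 0.0286.

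**Figure D4:**
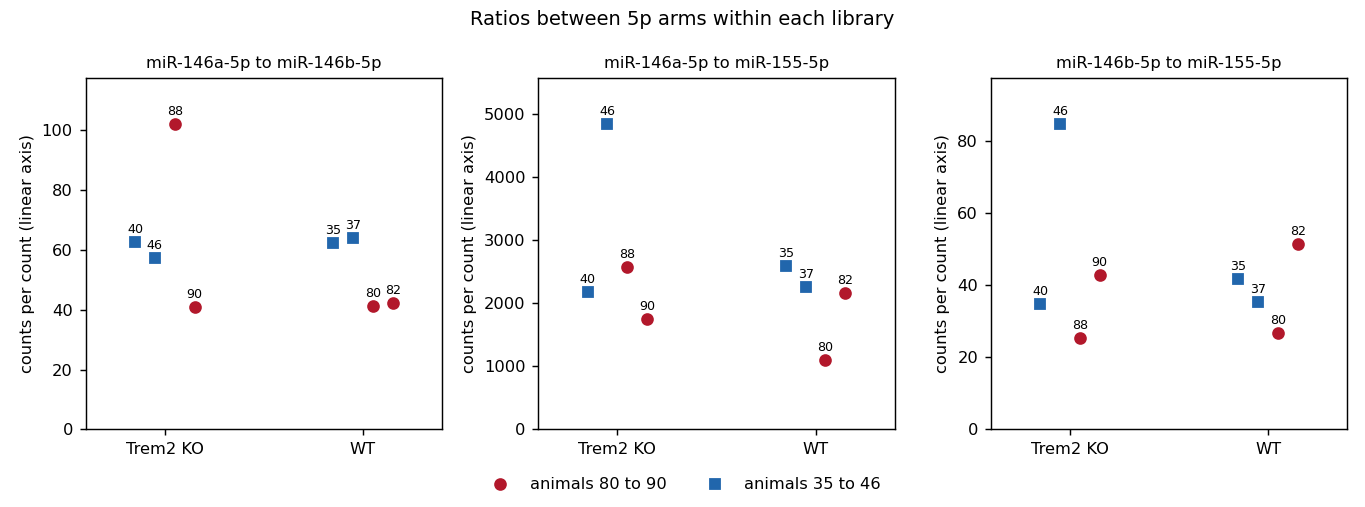
Counts of 1 arm per count of another within each library (linear axes from 0), for KO and WT libraries labelled by animal number. KO 88 stands apart at 101.8 for miR-146a-5p to miR-146b-5p, and KO 46 at 4842 for miR-146a-5p to miR-155-5p.

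Between the animal number ranges, 1 member passed the test. In animals 80 to 90, miR-146a-3p fell to 39.6 ± 11.6 CPM, against 102 ± 7.50 CPM in animals 35 to 46 (SD, n = 4 each). The log2 difference was -1.38 ± 0.28 (SE; edgeR adjusted p 0.00504 with genotype in the model). It was 1 of 5 entries called, where 32.4% of the 627 entries passed and 15.8% passed as lower, so a call was common in this comparison. The log2 differences of the other entries were -0.31 ± 0.28 for miR-146a-5p, -0.04 ± 0.30 for miR-146b-5p, 0.40 ± 0.47 for miR-155-5p and 0.65 ± 0.99 for miR-146b-3p (SE; edgeR adjusted p 0.424 to 0.938). The sign for miR-146b-5p turned to 0.0529 with DESeq2 size factors, and that for miR-155-5p turned to -0.14 without WT 80. For miR-146b-3p it was 0.25 without KO 90, 0.26 without KO 46 and 1.86 without KO 40, and it was 1.22 with limma-trend on the deposited normalized values. Libraries of the ranges did not overlap for 1 of the 5 entries and for 41.1% of all tested entries (21.4% with animals 80 to 90 above and 19.8% with them below).

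The arms of miR-146a were therefore set against each other. The 3p arm made up 0.0588% and 0.0483% of both arms in KO 88 and 90, against 0.129% and 0.123% in KO 40 and 46. In WT 80 and 82 it made up 0.0440% and 0.0689%, against 0.0953% and 0.0979% in WT 35 and 37. The share was lower in animals 80 to 90 in both genotypes. The Wilson 95% interval was 0.0583% to 0.0815% in WT 82, the highest of animals 80 to 90, and 0.0843% to 0.108% in WT 35, the lowest of animals 35 to 46. These intervals cover counting error within a library and say nothing of the spread between animals. The difference in mean log2 ratio of 3p to 5p was -1.03 between ranges (all 4 libraries below the other 4; exact two-sided permutation p 0.0286, the smallest possible, and adjusted p 0.143 over 5 ratios), a test added after the counts were seen that did not pass the adjustment. Among 109 mouse precursors with both arms at a mean of at least 10 counts, 49.5% did not overlap between the ranges, and miR-146a was at rank 55 by the size of its difference. An arm shift of this size was thus common in these libraries.

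Between genotypes the miR-146a arm ratio differed by 0.17 on the log2 scale (exact two-sided permutation p 0.714, adjusted p 0.771), and its libraries overlapped, whereas 1.83% of the 109 precursors did not overlap. That test took no account of the number ranges. Within animals 35 to 46 the miR-146a difference was 0.38, with both KO libraries above both WT libraries. Within animals 80 to 90 it was -0.0475, and the genotypes overlapped. With 2 against 2 libraries an exact p cannot go below 0.333. The miR-146b arm ratio differed by -1.28 (p 0.429 in the exact test, adjusted p 0.771) and rested on the count of 0 in KO 46, without which the difference was -0.15. By arm asymmetry, miR-146a was at rank 5 of the 109 precursors and miR-146b at rank 10.

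**Figure D5:**
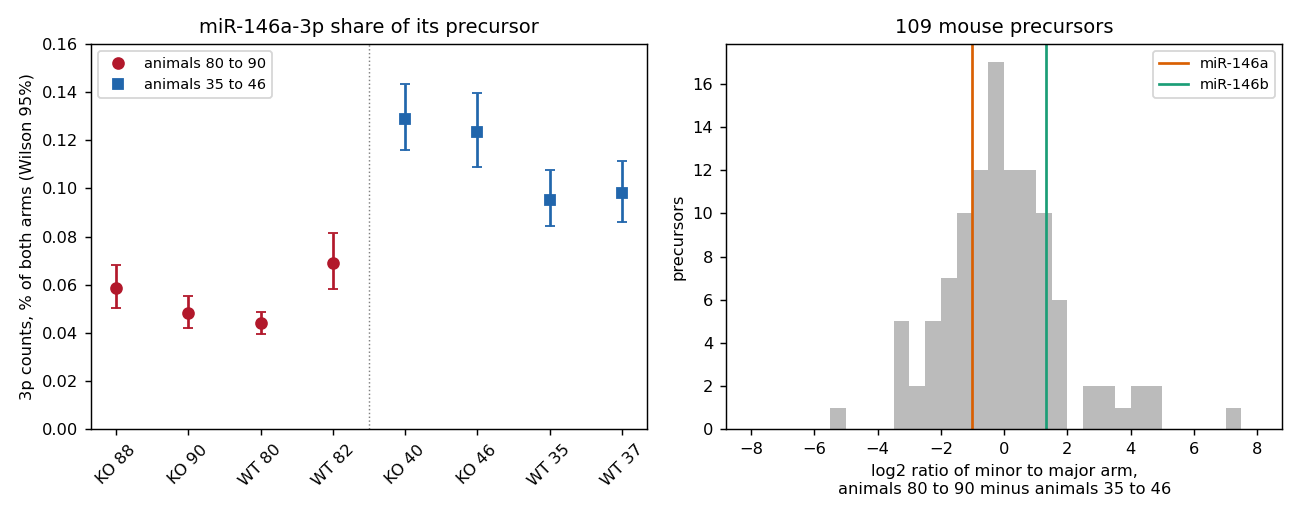
Left, the 3p share of miR-146a counts (% of both arms, Wilson 95% intervals) by library, animals 80 to 90 left of the dotted line; right, the log2 ratio of minor to major arm, animals 80 to 90 minus animals 35 to 46, over 109 mouse precursors. The share of miR-146a-3p is 0.0440% to 0.0689% at left of the line and 0.0953% to 0.129% at right of it, and the miR-146a difference of -1.03 lies within the bulk of the precursors.

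Markers of cell types moved with the number ranges as well. The summed level of the 4 macrophage miRNAs was 50441 to 71455 CPM in animals 80 to 90 and 25774 to 33321 CPM in animals 35 to 46. That of 3 erythroid miRNAs, all listed, was 636 to 2516 CPM in animals 80 to 90 and 5060 to 7387 CPM in animals 35 to 46. That of 4 stellate or mesenchymal miRNAs, all listed, was 3160 to 3696 CPM in animals 80 to 90 and 5512 to 8166 CPM in animals 35 to 46. For 3 lymphocyte miRNAs it was 2560.0 to 3853 CPM in animals 80 to 90 and 1809 to 2193 CPM in animals 35 to 46, and for 5 epithelial miRNAs 405 to 727 CPM and 235 to 360 CPM in the same order, with all members of both lists present. The 1 endothelial miRNA listed of 2 overlapped between the ranges, at 13576 to 18967 CPM in animals 80 to 90 and 12264 to 19239 CPM in animals 35 to 46. The 3 hepatocyte miRNAs overlapped too, at 7821 to 13194 CPM in animals 80 to 90 and 11243 to 131726 CPM in animals 35 to 46, where WT 37 was highest. The part of these cell types in the miR-146a-3p difference was not tested.

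Other miRNAs of the same response were read from a list of 12 known to rise in stimulated macrophages, of which 10 were tested. For genotype 7 were lower, 3 higher and 0 called (median log2 difference -0.18, against -0.04 over all 627). Examples are miR-21a-5p at 0.06 ± 0.39, miR-132-3p at -0.12 ± 0.62, miR-222-3p at -0.41 ± 0.38 and miR-125a-5p at -0.37 ± 0.44 (log2 difference with SE). Between the number ranges miR-132-3p, let-7e-5p and miR-125a-5p rose in animals 80 to 90, by 1.75, 1.18 and 1.17 on the log2 scale, and miR-21a-5p fell by 0.86 (edgeR adjusted p 0.0007 to 0.0296). That made 3 of 10 called higher, where 16.6% of all entries were, and 1 of 10 called lower, where 15.8% of all entries were. The count called lower is near the background, and 10 entries are too few to read an excess from the count called higher. Of 3 miRNAs reported to be lowered by Toll-like receptor signalling, 0 were called for genotype. Between the number ranges miR-125b-5p rose in animals 80 to 90 by 0.63 and miR-223-3p by 1.01 on the log2 scale (edgeR adjusted p 0.0390 and 0.00637), while let-7i-5p had a difference of -0.04 ± 0.22 (SE; edgeR adjusted p 0.918). These are 2 of 3 called higher, beside the 16.6% of all entries, and 3 entries are too few to read a share from.

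The entries whose profile over the 8 libraries was most like that of miR-146a-5p, by Pearson's r of log2 levels among 173 mouse entries of at least 100 CPM, were miR-10b-5p at 0.91, miR-30d-3p at 0.73 and miR-22-3p at 0.69. For miR-146b-5p they were miR-425-5p at 0.88, miR-140-5p at 0.87 and miR-503-5p at 0.86. After the mean of each number range was removed, 1 of these 6, miR-10b-5p, was still among the 3 closest to its member. The other members lay under 100 CPM and were not compared in this way. All points share their libraries, so these values are descriptions.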

How the data were processed

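The deposited table gave raw and normalized columns for 8 libraries, built per the labels from 1 µg of total RNA with a TruSeq small RNA kit. The sources used here do not name an aligner, miRNA database or build. The authors deposited expected counts as raw values (12.0% not whole at a tolerance of 1e-06), which were rounded before count models. The deposited normalized columns held a signal, the raw value times 1 factor per library. Counts were filtered with filterByExpr and scaled by TMM, leaving 627 entries, and tested over the whole table with edgeR 4.0.16 quasi-likelihood (Benjamini-Hochberg, 0.05); standard errors come from its F statistic. DESeq2 1.42.0 and limma 3.58.1 served as alternatives. The number range fit had genotype and range as terms. Ratios used counts plus 0.5 and exact permutation tests in scipy 1.17.1. Sequences came from the deposited table and RefSeq (GRCm38.p6), which may not be the authors' build. Members and lists were chosen with earlier results of these data known. Named entries are all members, the most abundant arm of each listed miRNA and the 3 closest profiles. Each library is a separately numbered mouse. The alternatives tried were other filters, scalings, tools, entry sets, a number range block, single ranges and leaving out each library. Ratios between number ranges and the arm ratios of all precursors were added after seeing the data. In the table, 2 empty lines were not analysed here.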

Additional observations from a re-analysis of the deposited data

Results flagged for a closer look

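In 40 groups of 4 libraries (5 levels and 5 ratios, each in both genotypes and both number ranges), 3 values stood well away from the rest of their group, where chance gives about 2. The first was WT 82, at 41117 CPM of miR-146a-5p against 97240.0 to 102589.7 CPM in the other WT libraries; without it the log2 difference, KO minus WT, was -0.26. The second was KO 46, at 18.5 CPM of miR-155-5p against 35.7 to 38.7 CPM in the other KO libraries; without it the miR-155-5p log2 difference was -0.38. The third was KO 88, with a log2 ratio of miR-146a-5p to miR-146b-5p of 6.67, against 5.35 to 5.40 in the other animals 80 to 90; without it the difference in this ratio between number ranges was -0.57, and with all 8 libraries it was -0.24.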

How the results depend on the processing

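For KO against WT, 0 entries were called with each of the 8 libraries left out and under 12 other settings. Without a filter, 10 interactions of genotype with range were called. Entries called between number ranges came to 203, and 129 to 222 with 1 library left out, the lowest without WT 37. The call of miR-146a-3p between ranges held with each of the 8 libraries left out and under 6 other settings (-1.55 to -1.22; adjusted p 0.00024 to 0.0288). Without TMM factors the median of all entries between ranges moved from -0.04 to 0.16. The miR-146a-5p genotype difference turned to 0.0140 (DESeq2 size factors and DESeq2), 0.0742 (no TMM factors), 0.0950 (limma-trend), 0.0477 (mouse entries only), 0.0522 (hepatocyte entries left out) and 0.24 (animals 80 to 90). The miR-146b-5p difference between ranges turned to 0.0779 (no filter), 0.0529 (DESeq2 size factors), 0.0528 (DESeq2) and 0.0405 (no TMM factors). Ratios turned to -0.0760 for miR-146a-5p to miR-146b-5p (animals 35 to 46), and in animals 80 to 90 to -0.17 for miR-146b-5p to miR-155-5p and -0.0475 for the miR-146a arms; exact p values there cannot go below 0.333. With 1 library left out, genotype differences spanned -0.26 to 0.0667 (miR-146a-5p) and -0.0629 to 0.46 (miR-146a-3p), range differences -0.36 to 0.15 (miR-146b-5p) and -0.14 to 0.72 (miR-155-5p), and ratios -0.17 to 0.41 (miR-146b-5p to miR-155-5p) and -0.0753 to 0.42 (miR-146a arms). The cause was not tested. The number range block changed no member's call. No paired analysis was made, because the labels give no litter or pair for the animals. Counts of 0 to 59 limit miR-146b-3p.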

Other observations

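Beside the mouse entries, 3 entries named from other species shared the seed of miR-146a-5p. One with a platypus name differed from miR-146a-5p by U17C and had 40, 44, 20 and 45 counts in KO 40, 46, 88 and 90, against 42, 38, 83 and 24 counts in WT 35, 37, 80 and 82. That was 0.00696% to 0.0121% of the miR-146a-5p count in animals 80 to 90 and 0.0149% to 0.0219% in animals 35 to 46. This share was not tested, and levels did not overlap between the ranges for 41.1% of all tested entries. The other 2, with a cattle and a rabbit name, shared 1 sequence, differed from miR-146a-5p by G18A over its length, and had the same values, 3 counts in KO 46, 2.5 in WT 35, 5 in WT 80 and 0 in the rest.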
